A study of Drosophila melanogaster with 6 samples.

Results

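The genes described here encode the ecdysone receptor and transcription factors of the cascade that its ligand starts. They were taken as the rows of the deposited count table whose symbol matched a set of 10 names, and 9 of the 14233 genes in the table matched: EcR, br, Eip74EF, Eip75B, Eip78C, Eip93F, Hr4, Hr39 and Hr46. The partner subunit gene usp is not analysed here. Their expression was compared in cells sorted from the wing imaginal disc of Drosophila, an epithelial sac of the larva that gives rise to the adult wing and part of the thorax. One genotype was Ap>Gal4, myrT, RasV12 with TubGal80ts, in which RasV12, a Ras GTPase locked in its active state, was expressed together with a membrane-bound Tomato label. The control genotype was Ap>Gal4, myrT, GFP-i with TubGal80ts, and the labels do not say what GFP-i is. The driver is active in the dorsal compartment of the disc, and the temperature-sensitive repressor, which both genotypes carried, restricted expression to the last 3 days of growth, at 29 °C after 6 days at 18 °C. Wing discs of wandering L3 larvae were dissociated, about 150000 labelled dorsal cells per library were sorted by flow cytometry, and their RNA was read by 3' mRNA sequencing in single reads of 100 nucleotides. Each genotype had 3 libraries. The labels do not say whether these came from separate groups of larvae, so the p-values measure only the spread between these samples, which may be technical.

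Ecdysone is the steroid hormone that times moulting and metamorphosis in insects. Its active form binds a heterodimer of the nuclear receptors encoded by EcR and usp, which then switches on a small set of early genes for transcription factors, and these in turn regulate each other and a larger set of late genes. In the wing disc the hormone pulse at the end of larval life starts disc eversion and the passage from proliferation to differentiation. Among the factors, br is known as a determinant of the pupal fate and Eip93F as a determinant of the adult fate.

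The libraries held 11070295 to 15581752 counts, and a count of 3 corresponded to 0.193 to 0.271 CPM, counts scaled by library depth, a floor for counting error only. No pair of libraries agreed within sampling noise (chi-square per degree of freedom of 24.9 to 172). Ras85D, the source of the RasV12 transgene, stood at 54.2, 79.9 and 57.6 CPM in RasV12 and at 41.2, 38.9 and 41.2 CPM in GFP-i, and whether its 3' tags include the transgene is not known. Of 10 wing disc markers, all detected in every library, 1 rose, 4 fell and 5 did not pass. The dorsal selector gene ap, for which the driver is named, stood at 207 to 308 CPM and did not pass, at -0.20 on the log2 scale. The 4 falls were in genes known for the wing pouch, the part of the disc that forms the wing blade. There rn stood at 4.12 to 6.97 CPM in RasV12 and 117 to 144 CPM in GFP-i (log2 fold change -4.46), nub at 11.9 to 13.3 and 144 to 158 CPM (-3.58), pdm2 at 1.12 to 2.63 and 19.7 to 22.6 CPM (-3.46), and vg at 29.99 to 48.7 and 93.7 to 128 CPM (-1.45), with edgeR adjusted p of 3.14e-07 to 9.88e-04. On the same marker list sd did not pass, at 0.04 on the log2 scale. The falls of rn, nub and pdm2 were larger than that of any of the 9 ecdysone genes. The part of these falls in the values of the 9 genes was not tested. In bulk RNA, fewer cells of a type and less RNA per cell cannot be told apart.

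Eip93F and Eip78C were higher in RasV12 cells, Hr4, br and Eip75B were lower, and EcR, Eip74EF, Hr39 and Hr46 did not pass the test. All 9 genes had enough counts to be tested, and 5 passed (edgeR quasi-likelihood test, adjusted p under 0.05 over 9134 tested genes), 2 higher and 3 lower. Of all tested genes 14.8% passed, 9.15% higher and 5.68% lower. The libraries of the genotypes did not overlap for 7 of the 9 genes, against 33.6% of all tested genes. Over all genes 836 were higher and 519 lower, which became 615 and 911 when counts were scaled by library size alone. With that scaling the 5 calls in the gene set kept their direction and passed. The median log2 fold change was 0.19 over the 9 genes and 0.02 over all tested genes.

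**Figure D1:**
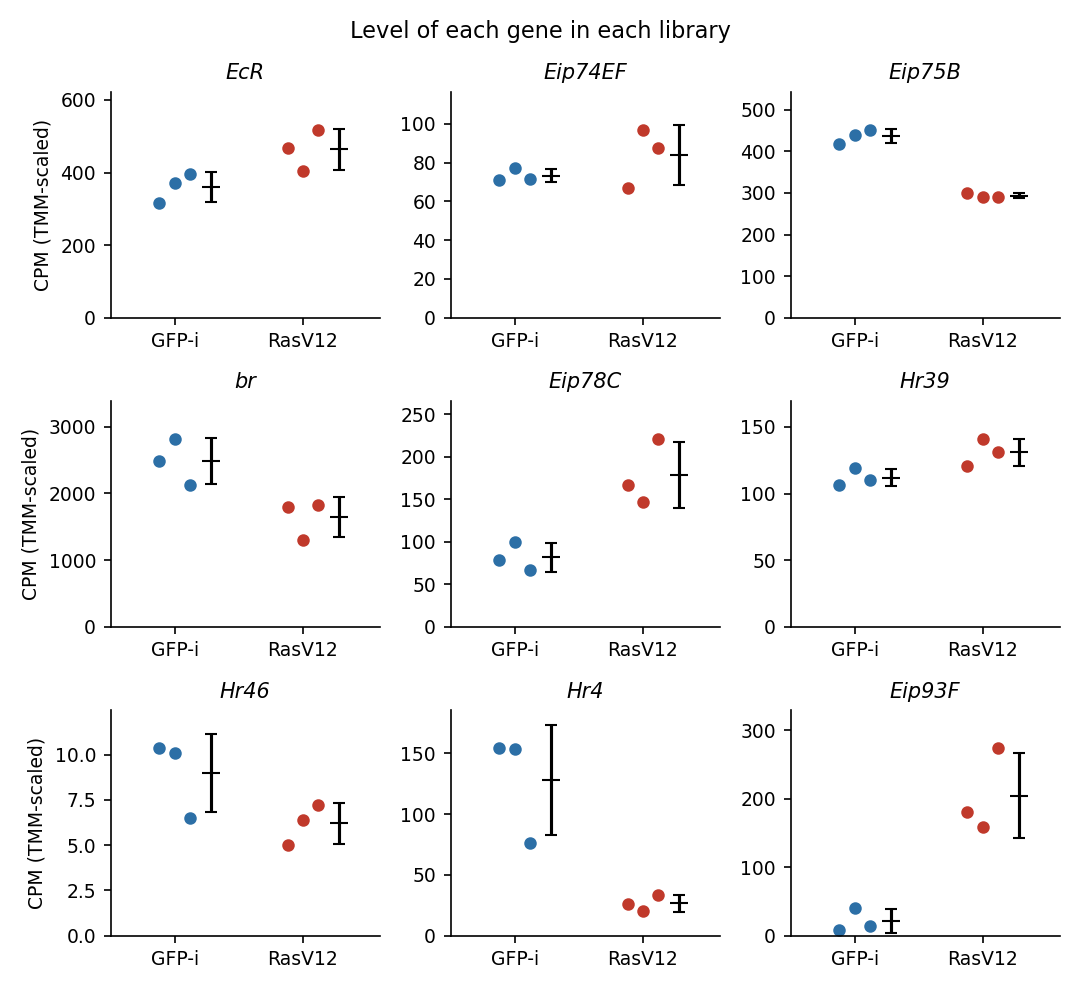
Level of each of the 9 genes in each library, in TMM-scaled CPM on a linear axis that starts at 0. Points are libraries, in replicate order within a genotype, and the bar beside them is the mean with the SD over 3 libraries. The RasV12 and GFP-i points are separate for 7 genes and overlap for Eip74EF and Hr46.

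The receptor gene EcR (2R, 6087873 to 6169087, minus strand, dm6) encodes the hormone-binding subunit. EcR was measured at 467, 406 and 518 CPM in RasV12 and at 315, 370.4 and 395 CPM in GFP-i. The lowest RasV12 library thus lay above the highest GFP-i library by a small margin. The log2 fold change was 0.36 ± 0.14 (SE, n = 3 per group), which did not pass (edgeR adjusted p = 0.117). The EcR difference passed without RasV12 replicate 2 (edgeR adjusted p = 0.033). With any 1 library left out it lay between 0.215 and 0.451 (edgeR adjusted p = 0.033 to 0.386). It did not pass in 16 of 18 alternative settings. The annotation lists 6 transcripts with 4 start sites and 4 ends for EcR, and the deposited counts are 1 value per gene, so the receptor isoforms are not resolved.

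Of the classical early genes, Eip75B and br were lower in RasV12 cells and Eip74EF did not pass. Eip75B (3L, 17950953 to 18064696, minus strand) encodes a heme-binding nuclear receptor that represses transcription and inhibits the product of Hr46. Its levels were 299.8, 291 and 291 CPM in RasV12 and 418, 439 and 452 CPM in GFP-i. The libraries of each genotype lay close together, and the gap between genotypes was wider than the spread within either. The log2 difference of -0.57 ± 0.11 (SE, n = 3 per group) passed at an edgeR adjusted p of 0.0065, and it lay between -0.66 and -0.56 when any 1 library was left out.

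The gene br (X, 1575132 to 1664869, plus strand) encodes BTB zinc-finger factors. It stood at 1801, 1306 and 1834 CPM in RasV12 and at 2488, 2824 and 2133 CPM in GFP-i. All RasV12 libraries were below all GFP-i libraries, with RasV12 replicate 2 the lowest. The level fell by 0.59 on the log2 scale (SE 0.16, n = 3 per group; edgeR adjusted p = 0.034), and this call was lost in 6 of 18 alternative settings, more than any other of the 5. Among them were the fits that left out replicate 1 of RasV12 or replicates 1 or 2 of GFP-i (edgeR adjusted p = 0.073, 0.059 and 0.072). The br locus has 16 annotated transcripts with 6 ends, so its zinc-finger isoforms are pooled in the count.

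Eip74EF (3L, 17558672 to 17619325, minus strand) encodes an ETS-domain factor. Its levels were 66.9, 97.1 and 87.4 CPM in RasV12 and 71.2, 77.3 and 71.7 CPM in GFP-i. RasV12 replicate 1 was the lowest of all 6 libraries and the other RasV12 libraries were the highest, so the groups overlapped. The log2 fold change was 0.19, with a 95% interval of -0.16 to 0.54 (edgeR adjusted p = 0.469).

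Among the nuclear receptors induced by the hormone, Eip78C rose and Hr4 fell. Eip78C (3L, 21226609 to 21266503, plus strand) encodes an orphan receptor related to the product of Eip75B. It was measured at 166, 146 and 221 CPM in RasV12 and at 78.3, 99.5 and 66.6 CPM in GFP-i. Every RasV12 library was above every GFP-i library, and the mean level differed 2.19-fold. On the log2 scale it rose by 1.13 ± 0.20 (SE, n = 3 per group), with an edgeR adjusted p of 0.0040. Eip78C and Eip75B, which encode related receptors, thus moved in opposite directions. The log2 ratio of their counts within a library, which needs no scaling between libraries, was -0.74 ± 0.31 in RasV12 and -2.44 ± 0.31 in GFP-i (SD, n = 3). This pair was chosen after its values were seen, so the ratio restates their changes and was not tested.

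Hr4 (X, 1941940 to 2007956, plus strand) encodes an orphan nuclear receptor that acts in the timing of metamorphosis. Its levels were 26.3, 20.0 and 33.3 CPM in RasV12, and 155, 153 and 76.1 CPM in GFP-i. GFP-i replicate 3 lay well below the other GFP-i libraries but still above every RasV12 library. The fall was 4.82-fold, or -2.27 ± 0.31 on the log2 scale (SE, n = 3 per group), with an edgeR adjusted p of 0.0019, and ranked 67th among the falls of the 9134 tested genes. Without GFP-i replicate 3 the log2 fold change was -2.60 (edgeR adjusted p = 4.79e-04). When each library was left out in turn, the Hr4 value lay between -2.60 and -2.11 (edgeR adjusted p = 4.79e-04 to 0.021). The last 46 bases of Hr4 overlap the end of CG4406 on the opposite strand, and whether counting used the strand is not stated, so reads in those bases cannot be assigned. CG4406 held 280, 187 and 194 counts in RasV12 and 187, 141 and 210 counts in GFP-i, beside 362, 213 and 480 counts of Hr4 in RasV12 and 2057, 2600 and 1008 in GFP-i. Each of the other genes that overlap one of the 9 held at most 1.65% of its counts.

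Hr46 and Hr39 did not pass. Hr46 (2R, 10203995 to 10237348, minus strand) encodes a receptor known as an activator of ftz-f1 in the prepupa. It was the least covered of the 9 genes, with 69, 68 and 104 counts in RasV12 and 138, 171 and 86 counts in GFP-i. GFP-i replicate 3 fell within the range of the RasV12 libraries, at 6.50 CPM against 5.01 to 7.21 CPM. The log2 fold change was -0.54, with a 95% interval of -1.10 to 0.02 (edgeR adjusted p = 0.195). Hr39 (2L, 21237250 to 21259675, plus strand), which encodes a receptor related to the product of ftz-f1, stood at 121, 141 and 131 CPM in RasV12 and 106, 119 and 110.4 CPM in GFP-i. Its groups just failed to overlap, and the log2 fold change was 0.23, with a 95% interval of -0.05 to 0.50 (edgeR adjusted p = 0.269). The intervals of Hr46, Hr39 and Eip74EF leave room for differences of either sign, and that of Hr46 reaches a change of more than 2-fold downwards.

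Eip93F had the highest fold change of the set. The gene (3R, 21949114 to 22014539, plus strand) encodes a helix-turn-helix factor that acts late in the cascade and directs adult differentiation. It was measured at 180.3, 158 and 275 CPM in RasV12 and at 8.50, 40.8 and 14.7 CPM in GFP-i. All GFP-i libraries were far below the RasV12 libraries, but GFP-i replicate 2 stood well above the other GFP-i libraries. The mean difference was 9.51-fold, or 3.25 ± 0.55 on the log2 scale (SE, n = 3 per group), with an edgeR adjusted p of 0.0063, and ranked 77th among the rises of all tested genes. Without GFP-i replicate 2 it was 4.09 (edgeR adjusted p = 1.61e-04). The call was lost without RasV12 replicate 2 (log2 fold change 3.40, edgeR adjusted p = 0.067) and with no filter on low counts (edgeR adjusted p = 0.087), while the fold change stayed above 2.8 in all 18 alternative settings.

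**Figure D2:**
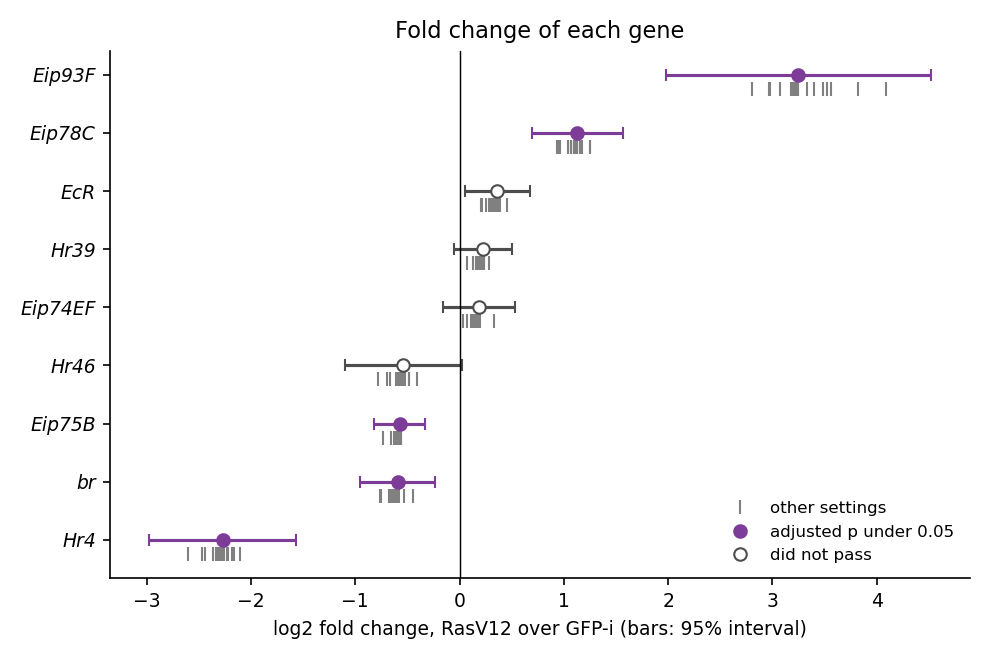
Log2 fold change of the 9 genes, RasV12 over GFP-i, with the 95% interval of each single gene, not adjusted for the number of genes tested. Filled points passed at an adjusted p under 0.05, open points did not, and grey ticks are the values under the alternative settings. Eip93F and Hr4 lie farthest from 0, at 3.25 and -2.27, and no tick lies on the other side of 0 from its point.

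The opposite changes of Eip93F, br and Hr4 can be restated as ratios of counts within a library. The gene pairs of this paragraph were chosen after their values were seen. Their ratios are therefore not separate evidence and were not tested. The log2 ratio of Eip93F to br was -3.32, -3.04 and -2.74 in RasV12 and -8.19, -6.11 and -7.18 in GFP-i. The ratio was higher in every RasV12 library than in any GFP-i library, and the means differed by 4.13 log2 units. The log2 ratio of Eip93F to Hr4 was positive in every RasV12 library, at 2.78, 2.99 and 3.05, and negative in every GFP-i library, at -4.19, -1.91 and -2.37. By contrast the log2 ratio of Eip75B to Hr46 was 5.58 ± 0.29 in RasV12 and 5.63 ± 0.43 in GFP-i (SD, n = 3), a difference smaller than the spread within either genotype.

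The 9 genes differed in how much they varied between libraries of a genotype. For Eip93F the SD within genotypes was 0.86 log2 units, higher than or equal to that of 99.5% of the 1289 tested genes within 1 log2 unit of its level, where the median was 0.17. Hr4 (0.49) was at the 96.5th percentile of 1611 genes and br (0.24) at the 87.9th of 124. In contrast Eip75B had an SD of 0.04, at the 1.5th percentile of 473 genes, and that of Hr39 was 0.10, at the 14.5th of 1232. Within GFP-i, Eip93F deviated from the mean by -1.01, 1.23 and -0.23 log2 units in replicates 1, 2 and 3, and Hr4 by 0.35, 0.33 and -0.68. The library with the highest Eip93F in each genotype, RasV12 replicate 3 and GFP-i replicate 2, also had the highest Eip78C and br. None of EcR, Eip74EF, Eip75B, Hr4, Hr39 and Hr46 was highest in both of these libraries.

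In each genotype the library with the highest Eip93F was also the highest in the median level of 752 other genes that span at least 20 kb, while RasV12 replicate 2 and GFP-i replicate 1 deviated about as far downwards. This median deviated by 0.01, -0.18 and 0.17 log2 units in RasV12 replicates 1, 2 and 3 and by -0.16, 0.15 and 0.01 in the GFP-i replicates. The 9 genes are themselves long, spanning 22.4 to 113.7 kb. RasV12 replicate 3 and GFP-i replicate 2 were the highest of their genotypes in Eip93F. The Eip93F value without them is therefore a description and not separate support. With RasV12 replicate 3 and GFP-i replicate 2 both left out, Eip93F had a log2 fold change of 3.82 (edgeR adjusted p = 4.94e-04), Hr4 of -2.36 (0.0068), Eip78C of 1.07 (0.0097) and Eip75B of -0.60 (0.0498), and br did not pass (-0.62, 0.084). With the long-gene median of each library as a covariate the 5 calls held and EcR also passed, at 0.38 (edgeR adjusted p = 0.011). In that fit 14% of all tested genes were higher and 11.4% lower, against 9.15% and 5.68% without the covariate. The covariate was computed from these same libraries, so passing in that fit is not separate support for a gene.

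**Figure D3:**
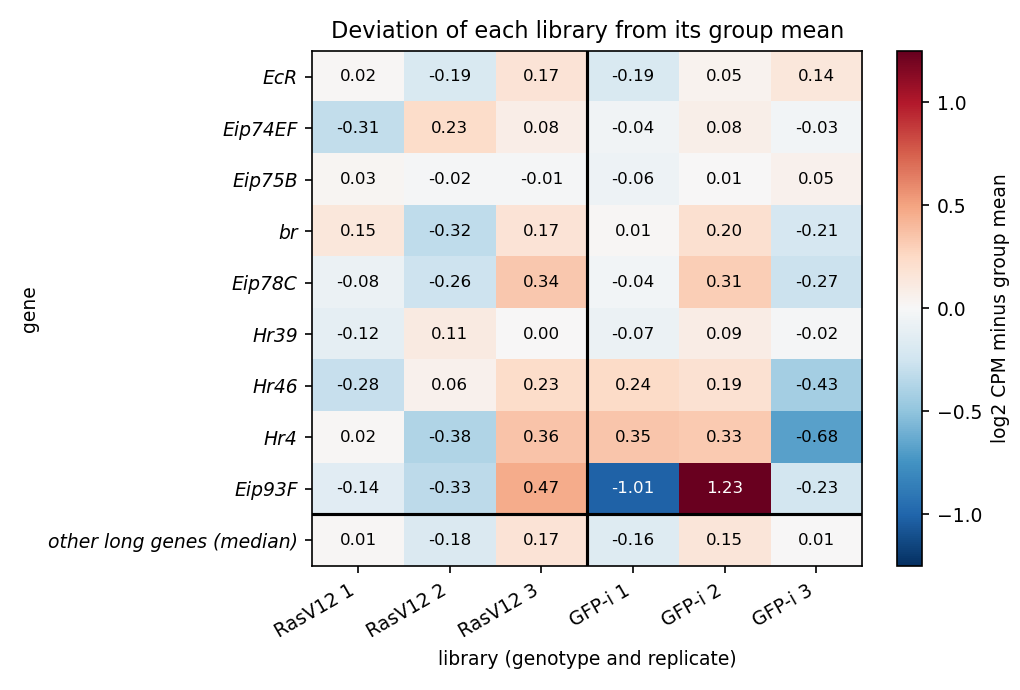
Deviation of each library from the mean of its genotype, in log2 CPM, for the 9 genes and for the median of 752 other genes spanning at least 20 kb. Red cells are above and blue cells below the genotype's mean. Eip93F shows the widest deviations, from -1.01 to 1.23, in GFP-i replicates 1 and 2, and Eip75B stays within 0.06 of its means.

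In the authors' deposited table the same 5 of the 9 genes had an adjusted p under 0.05, and the table marked 3 of them, Eip78C and Eip93F as higher and Hr4 as lower. Over that whole table, 1523 of the 9868 genes given an adjusted p were under 0.05. It marked 446 genes as higher and 252 as lower. The unshrunken log2 fold changes in the authors' deposited table were 3.22 for Eip93F, 1.09 for Eip78C, -0.60 for Eip75B, -0.63 for br and -2.31 for Hr4. For Eip93F the shrunken value in the authors' deposited table was 2.10.

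Further genes were read from 4 lists: hormone handling and cofactors, other nuclear receptors, ecdysone-responsive genes, and juvenile hormone and timing. These lists, called the pathway lists below, are not confined to genes of the ecdysone pathway. They held 57 genes of the table, of which 53 were tested. Of these, 11 rose (20.8%, against 9.15% of all tested genes), 10 fell (18.9%, against 5.68%) and 32 did not pass, with a median log2 fold change of -0.04. With RasV12 replicate 3 and GFP-i replicate 2 both left out, 6 rose and 5 fell of 52 tested, and over all genes the shares dropped to 4.82% and 2.68%. These genes were not a random draw, so the shares are a description, and not one of the ecdysone pathway alone.

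Among genes that handle the hormone or assist the receptor, the largest change was in Cyp18a1, which encodes the cytochrome P450 that inactivates ecdysone. It stood at 188, 152 and 236 CPM in RasV12 and at 6.39, 10.96 and 14.7 CPM in GFP-i. Every RasV12 library was far above every GFP-i library, and the rise was 4.16 ± 0.31 on the log2 scale (SE, n = 3 per group), with an edgeR adjusted p of 7.38e-05. DOR, which encodes a receptor coactivator, rose by 1.37 ± 0.16, and the corepressor gene CtBP fell by 0.45 on the log2 scale (edgeR adjusted p = 0.034). The CtBP call did not survive leaving out replicate 1 of RasV12 or replicates 2 or 3 of GFP-i (edgeR adjusted p = 0.084, 0.070 and 0.076). The other 11 tested genes of the 14 did not pass, among them tgo, a bHLH-PAS gene, at -0.44, the corepressor gene Smr at -0.31, the importer gene Oatp74D at -0.25, the transporter gene E23 at 0.35 and the coactivator gene tai at -0.09. The gene shd, whose product makes the active hormone, was at most 0.83 CPM in any library and was not tested.

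Of 13 other tested nuclear receptor genes, 1 rose, 3 fell and 9 did not pass. ftz-f1, which encodes the competence factor of the prepupa, was at 92.4, 88.0 and 114 CPM in RasV12 and 48.4, 52.8 and 61.8 CPM in GFP-i. It rose by 0.85 ± 0.15 (log2, SE, n = 3 per group; edgeR adjusted p = 0.0045), a call lost with RasV12 replicate 3 and GFP-i replicate 2 both left out (0.069). The neighbouring wing vein genes kni and knrl fell, with log2 fold changes of -1.40 ± 0.16 and -1.52 ± 0.23. Hr38, whose product can also pair with that of usp, fell by 0.85 on the log2 scale (edgeR adjusted p = 0.043), a call lost when any library but GFP-i replicate 1 was left out (edgeR adjusted p = 0.055 to 0.124).

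Genes known for a response to ecdysone changed in both directions. Of 19 tested, 6 rose, 5 fell and 8 did not pass. ImpL2, which encodes a secreted inhibitor of insulin signalling, rose by 1.77 ± 0.12, ImpL3, the lactate dehydrogenase gene, by 1.46 ± 0.15, and the bZIP gene vri by 1.21 ± 0.14 (log2, SE, n = 3 per group). Cyp18a1 counts here as well, and the other rises were ImpL1 (1.64 ± 0.28) and, at a low level, the cuticle gene Edg91 (2.90 ± 0.52). The cuticle gene Edg78E fell to 10, 2 and 7 counts in RasV12 from 121, 93 and 61 counts in GFP-i. Sb, which encodes a membrane protease needed for disc eversion, fell with a log2 fold change of -1.07 ± 0.18. The remaining falls, named after their values were seen like ImpL1 and Edg91, were ImpE2 (-3.70 ± 0.53), ImpE1 (-0.69 ± 0.17) and the zinc-finger gene crol (-0.62 ± 0.14). With RasV12 replicate 3 and GFP-i replicate 2 both left out, ImpL1, Edg91, ImpE2, ImpE1 and crol no longer passed (edgeR adjusted p = 0.052 to 0.074). ImpE1 also lost its call without RasV12 replicate 1 (edgeR adjusted p = 0.072).

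Among 10 tested genes of juvenile hormone signalling and developmental timing, 3 rose, 1 fell and 6 did not pass. The BTB zinc-finger gene ab rose by 1.18 ± 0.15 and chinmo, a BTB zinc-finger gene of early larval stages, by 0.78 ± 0.16 (log2, SE, n = 3 per group). The RNA-binding protein gene Imp rose by 0.61 ± 0.15, while mamo, another BTB zinc-finger gene, had a log2 fold change of -1.05 ± 0.20. The chinmo call was lost without RasV12 replicate 1 (edgeR adjusted p = 0.053) and with RasV12 replicate 3 and GFP-i replicate 2 both left out (0.109). The Imp call did not survive leaving out replicates 1 or 3 of either genotype (edgeR adjusted p = 0.075 to 0.131) and when only library size was scaled (0.085). The hormone receptor gene Met stood at 0.22 and the juvenile hormone target Kr-h1 at -0.05, and neither passed.

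**Figure D4:**
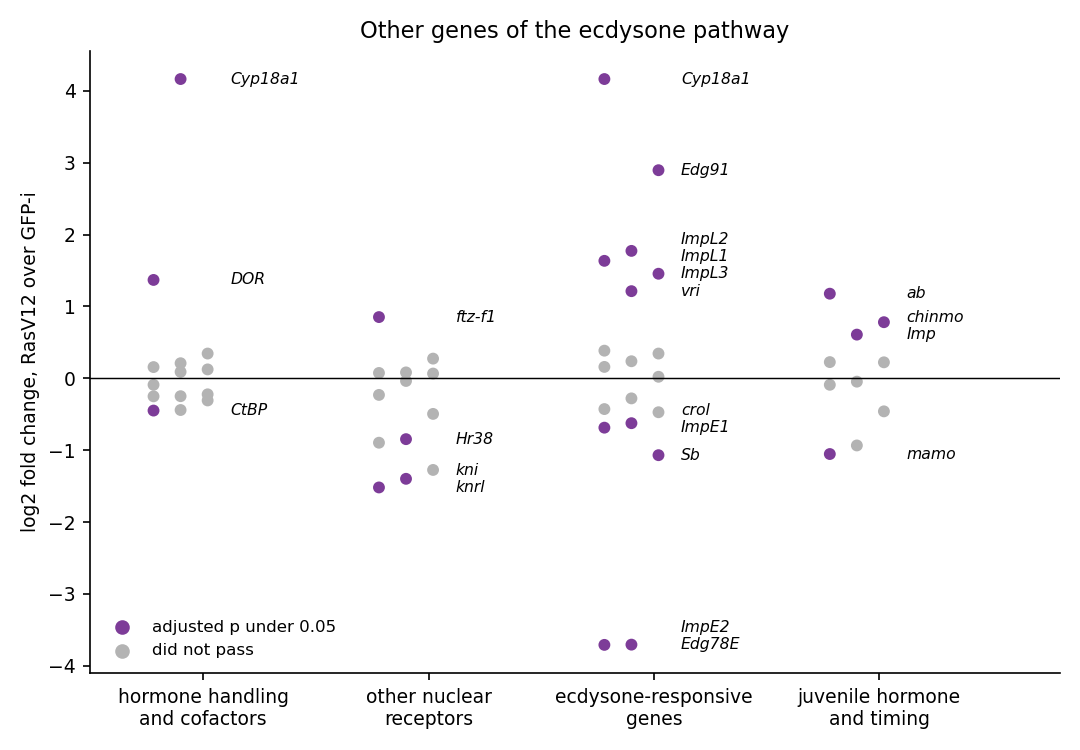
Log2 fold change, RasV12 over GFP-i, of the tested genes in the 4 pathway lists. These hold genes of hormone handling and cofactors, other nuclear receptors, ecdysone-responsive genes, and genes of juvenile hormone and timing. They are not confined to the ecdysone pathway. Each point is a gene, purple points passed at an adjusted p under 0.05 and are named at their side, and grey points did not pass. Cyp18a1, in both the first and the third list, lies highest at 4.16, and Edg78E and ImpE2 lie lowest at -3.71 and -3.70.

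Marker genes of cell types that a sorted disc sample could hold were also read. Of 6 muscle precursor markers 3 fell and none rose, and their summed level was 60.0 to 76.4 CPM in RasV12 and 76.8 to 117 CPM in GFP-i. Most of the RasV12 sum was Mef2, at 46.8 to 53.8 CPM in RasV12 and 35.1 to 42.6 CPM in GFP-i, which did not pass. The falls were 10.9-fold for Him (0.48 to 1.74 and 9.43 to 15.4 CPM), 4.53-fold for zfh1 (1.03 to 5.54 and 11.7 to 25.0 CPM) and 4.10-fold for htl (0.37 to 1.02 and 2.42 to 3.12 CPM). The zfh1 call did not survive leaving out replicate 1 of RasV12 or replicates 2 or 3 of GFP-i (edgeR adjusted p = 0.072, 0.057 and 0.072). With RasV12 replicate 3 and GFP-i replicate 2 both left out neither zfh1 (0.067) nor htl (0.091) passed. Of 5 tested haemocyte markers 2 fell, vkg (log2 fold change -2.18) and Cg25C (-1.72). The sums over 7 haemocyte markers were 26.1 to 30.5 CPM in RasV12 and 29.9 to 39.7 CPM in GFP-i. Of the markers that did not pass, srp stood at 5.72 to 11.0 CPM and SPARC at 8.96 to 16.4 CPM over all libraries. The haemocyte markers Hml and He were under 1 CPM in every library. Of 3 tracheal markers 1 rose, btl 2.29-fold, and 1 fell, dys 4.64-fold. Most of their sum (63.1 to 80.5 and 71.5 to 113 CPM) was trh, which did not pass. Of 5 markers of neurons and glia 1 rose (69.0 to 82.0 and 52.3 to 69.9 CPM). Of 6 fat body markers, with sums of 10.9 to 15.97 and 6.77 to 11.1 CPM, 1 was tested, Lsp1beta. It made up most of the sum, at 10.0 to 15.8 CPM in RasV12 and 5.64 to 9.52 CPM in GFP-i. Its log2 fold change of 0.60 did not pass (edgeR adjusted p = 0.17). Fbp1 and Fbp2 were under 0.5 CPM in every library. The summed level of the 10 wing disc markers was 1085 to 1249 CPM in RasV12 and 1434 to 1564 CPM in GFP-i. Much of that sum was sd, at 505 to 549 CPM over all 6 libraries, which did not pass, and mirr, at 204 to 227 CPM in RasV12 and 118 to 140 CPM in GFP-i, was the gene that rose (log2 fold change 0.73, edgeR adjusted p = 0.0034). The marker genes given by name were named after their values were seen, other than ap. The part of these cells in the values of the 9 genes was not tested.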

How the data were processed

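RNA of sorted wing disc cells was profiled in 3 RasV12 and 3 GFP-i libraries. The deposited table holds 1 raw count per gene and library, whole numbers without normalization. The submitters' processing notes name the build dm6 and list Trimmomatic 0.33, STAR 2.3.0e, bedtools 2.17 and DESeq2. The program, strand setting and annotation behind the counts were not given in the sources used here. In the table, the mean normalized level (a signal), the log2 fold changes and errors, the test statistic (a score), the p-values and a further column of calls belong to the authors' own comparison, per the file headers. Of 14018 gene identifiers shared with Ensembl release 115, 98.5% had the same coordinates, and transcript numbers are from that release.

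The counts were fitted with edgeR 4.0.16 in R 4.3.3 (TMM scaling, filterByExpr, robust quasi-likelihood F test, two-sided, Benjamini-Hochberg adjustment over 9134 genes, threshold 0.05), and 5099 genes were left out by the filter. Levels are given as CPM after TMM scaling, and standard errors follow from the F statistic. The procedure was tested on simulated data. The alternatives were DESeq2 1.42.0, limma-voom (limma 3.58.1), other scalings, filters and thresholds, covariates, and left-out libraries. The gene set and lists were chosen with earlier results of these data known. Named genes were the 9 genes, Ras85D, ap and, per list, the 4 lowest p plus the 2 lowest of the other direction where genes passed both ways, besides genes that overlap one of the 9 with at least 10% of its counts. The lists held 116 entries, 112 of which were found, and the other 4 are not analysed here. A planned ratio of EcR to usp was not computed. Same-numbered replicates of the genotypes did not deviate together.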

Additional observations from a re-analysis of the deposited data

How the results depend on the processing

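Over 18 alternative settings, 150 of 161 fold changes of the 9 genes kept their direction and their side of the threshold, 9 no longer passed, 2 newly passed and 0 reversed. Of 679 values for 38 other named genes, 610 kept both, 53 no longer passed and 9 newly passed. The other 7 were of sd, which passed in no setting and turned from 0.04 to -0.12 when only library size was scaled, to -0.021 with no filter, to -0.015 without ribosomal RNA and mitochondrial genes, to -0.027 with RasV12 replicate 3 and GFP-i replicate 2 both left out, and to between -0.024 and 0.074 with 1 library left out. Among the 9 genes, 1 was higher with no filter on low counts, where Eip93F did not pass. The replicate number as a block left 1 gene lower, Hr4, since Eip75B and br no longer passed (edgeR adjusted p = 0.057 and 0.123). Same-numbered libraries did not deviate together (correlations of -0.03, -0.42 and -0.11 over 9134 genes). With 3 libraries per genotype this cannot show whether they were handled as pairs, which the labels do not say. With the block 701 genes were called in all, and 6 genes of the pathway lists fell. All genes called were 674 at an adjusted p under 0.01, 2320 with the long-gene median as a covariate, 678 with RasV12 replicate 3 and GFP-i replicate 2 both left out, and 741 to 1521 with 1 library left out (846 when RasV12 replicate 1 was dropped and 741 when GFP-i replicate 3 was), against 1355. Of the pathway lists 6 genes fell at an adjusted p under 0.01, and 6 rose and 5 fell with both libraries left out. With 1 library left out, 9 to 12 rose and 7 to 10 fell, and of the 9 genes 2 to 3 were lower. Scaling by library size only moved the median log2 fold change of all genes by -0.16, and no other setting moved it by more than 0.07. The cause of these changes was not tested. Hr46 had the fewest counts of the 9 genes, 68 to 171 per library, and an SD within genotypes of 0.32 log2 units, against a median of 0.28 over genes at its level.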

Other observations

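Genes that make ecdysone in the prothoracic gland were read as markers of that gland. Of 6 such genes 4 were tested, and 2 rose in RasV12 cells. The mitochondrial cytochrome P450 gene sad was measured at 27.8, 26.4 and 19.1 CPM in RasV12 and at 3.16, 2.83 and 3.63 CPM in GFP-i. Every RasV12 library lay far above the GFP-i libraries, and the rise was 2.93 ± 0.22 on the log2 scale (SE, n = 3 per group), with an edgeR adjusted p of 2.11e-05. The P450 gene phm rose by 1.52 ± 0.27 (edgeR adjusted p = 0.0048), from 2.41, 1.83 and 3.25 CPM to 7.48, 7.22 and 6.65 CPM. Of the remaining genes nvd and spok did not pass, at -0.57 and -0.64, and dib and spo were at most 0.24 CPM in any library. The summed level of the 6 genes was 38.1 to 42.8 CPM in RasV12 and 15.0 to 22.3 CPM in GFP-i. Both sad and phm were named after their values were seen, and their calls held with any 1 library left out (edgeR adjusted p = 1.79e-05 to 0.029).

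Syp, which encodes an RNA-binding protein that opposes Imp in neural stem cells, stood at 1208, 1016 and 1380 CPM in RasV12 and at 1576, 1896 and 1482 CPM in GFP-i. The groups did not overlap, and the log2 fold change of -0.46 did not pass (edgeR adjusted p = 0.066; 0.0051 to 0.192 over the alternatives). Imp rose in the same libraries, as given above.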
